A study of Mus musculus with 2 samples.

Results

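Respiratory complex I is the NADH dehydrogenase of the inner mitochondrial membrane, and most of its subunits and several of its assembly factors are encoded by nuclear genes whose symbols begin with Nduf. The members described here were the genes with such a symbol, without the suffix -ps, that had at least 1 protein-coding transcript in the annotation. There were 46 of them among 55536 named genes, on 17 chromosomes, with 2 (Ndufa1 and Ndufb11) on the X chromosome. The rule used names and transcript types and no measured value.

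The tissue was gastrocnemius, the large fast-contracting muscle of the calf, from female B6CASTF1/J mice at 2 months of age, the F1 hybrids of the B6 and CAST strains. There was 1 group of 2 libraries of total RNA, each made from 300 ng with ERCC spike-ins, and the labels number them as biological replicates 2 and 1, called animal 2 and animal 1 here. No genotype, treatment or second tissue was compared. The labels give separate biosamples but the same donor record for both, so whether the SD between them measures 2 mice or 1 cannot be told apart. The libraries held 47771308 expected counts in named genes in animal 2 and 45014831 in animal 1. Each library has a gene table, used unless another is named, and 2 transcript tables, of which the first shares the gene table's column layout and the second, made from the reads, was summed per gene here. The members received 215343 counts in animal 2, which was 0.451% of the total (exact binomial 95% interval 0.449 to 0.453%), and 187979 in animal 1, which was 0.418% (0.416 to 0.419%).

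Complex I takes electrons from NADH, passes them along a chain of iron-sulfur clusters to ubiquinone, and couples this to the pumping of protons. Its peripheral arm faces the matrix and is described as an N module, which oxidises NADH, and a Q module, which reduces ubiquinone, while its membrane arm has a proximal and a distal part that hold the proton pumps. The catalytic core consists of nuclear subunits in the peripheral arm and of mitochondrially encoded subunits in the membrane, around which accessory subunits are arranged. Assembly factors bind intermediates of the complex and are absent from the finished enzyme. The 46 members fell into 8 subunits of the N module, 8 of the Q module, 9 of the proximal and 11 of the distal membrane arm, 8 assembly factors (Ndufaf1 to Ndufaf8), and the pair Ndufa4 and Ndufa4l2. Of the 36 subunits, 7 belong to the catalytic core and 29 are accessory.

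The tissue label was checked first. All 6 skeletal muscle markers were present, with a median level of 9613 TPM in animal 2, against 9950 TPM in animal 1. TPM is a measure of transcript abundance per length and library total. No marker in this list is particular to gastrocnemius, so the check bears on skeletal muscle and not on which muscle it was. The animals stood apart in other markers, which touches every comparison between them. The 6 slow-fibre markers were higher in animal 2, by a median log2 ratio of 2.60 (range 2.40 to 2.76), with a median of 433 TPM in animal 2, against 78.3 TPM in animal 1. The 6 adipocyte markers were lower in animal 2, by a median log2 ratio of -3.88 (2.44 TPM in animal 2, against 42.8 TPM in animal 1), as were the 6 Schwann cell markers (-3.01, with 3.88 TPM in animal 2, against 36.8 TPM in animal 1). Summed over the list, slow-fibre markers had 2666 TPM in animal 2, against 484 TPM in animal 1, adipocyte markers 98.5 TPM in animal 2, against 761 TPM in animal 1, and Schwann cell markers 33.0 TPM in animal 2, against 245 TPM in animal 1. The median log2 ratio was -0.21 over endothelial (range -1.74 to 0.07), -0.26 over fibroblast (-1.08 to 0.16) and -0.58 over macrophage markers (-0.61 to -0.32). It was -0.59 over pericyte and smooth muscle (-1.83 to 0.01) and 0.48 over erythroid markers (0.47 to 0.54). The pericyte and smooth muscle list was split, with Tagln, Acta2 and Myh11 at -1.83, -1.26 and -1.12, and Rgs5, Kcnj8 and Notch3 at 0.01, -0.06 and -0.05. Every marker had a TPM above 0 in both animals. Fewer cells of a type and less RNA per cell cannot be told apart in whole tissue.

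Several members have near-identical processed pseudogenes, and a read that matches both can be assigned to either. Alignment of the members' coding transcripts to all annotated transcripts found 18 copies of 13 members at 90% identity or more, over at least 200 bases and 80% of the copy, and all 18 were annotated as processed pseudogenes. Of the copies, 14 had a mean count under 10 in the gene table, and the other 4 had 100 or more. These 4 pairs are described because their sequences are almost the same and the deposited tables divided their reads differently. Coordinates are on mm10 with the GENCODE M21 annotation, positions are counted from 1 at the first base of the start codon, and capitals mark the bases at which member and copy differ.

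Ndufb4, an accessory subunit of the distal membrane arm (ENSMUSG00000022820.4, chr16:37647170-37654453, minus strand), and the intronless Ndufb4c (chr15:73809507-73809896, minus strand) were identical over the 390 bases aligned, which include all 387 coding bases. Their common first 150 coding bases are printed once.
Ndufb4 and Ndufb4c: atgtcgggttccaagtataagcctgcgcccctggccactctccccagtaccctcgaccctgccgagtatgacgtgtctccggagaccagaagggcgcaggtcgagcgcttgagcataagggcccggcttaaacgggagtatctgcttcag
The gene table gave Ndufb4c more reads than Ndufb4 itself. The copy had 2344 counts in animal 2 and 2278 in animal 1, while Ndufb4 had 1613 in animal 2 and 1373 in animal 1. The copy thus held 59.2% of the reads of both in animal 2 (exact binomial 95% interval 57.7 to 60.8%) and 62.4% in animal 1 (60.8 to 64.0%). The second table gave the pair fewer reads and put them on Ndufb4, with 2549 in animal 2 and 2285 in animal 1. It listed the copy at 0 reads, with exact binomial 95% upper limits of 0.145% in animal 2 and 0.161% in animal 1. Such intervals and limits cover counting error only, not the choice between identical sequences.

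Ndufs5, an accessory subunit at the intermembrane-space side of the proximal membrane arm, and its copy BC002163 (chr16:42955631-42955949, plus strand) differed by T81C and A105G.
Ndufs5: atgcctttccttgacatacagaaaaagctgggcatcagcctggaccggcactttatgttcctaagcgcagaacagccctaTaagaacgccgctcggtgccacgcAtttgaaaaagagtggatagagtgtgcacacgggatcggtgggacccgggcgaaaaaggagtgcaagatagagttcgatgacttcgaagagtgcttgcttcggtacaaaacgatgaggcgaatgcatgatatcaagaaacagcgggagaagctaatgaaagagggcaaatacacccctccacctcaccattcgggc
BC002163: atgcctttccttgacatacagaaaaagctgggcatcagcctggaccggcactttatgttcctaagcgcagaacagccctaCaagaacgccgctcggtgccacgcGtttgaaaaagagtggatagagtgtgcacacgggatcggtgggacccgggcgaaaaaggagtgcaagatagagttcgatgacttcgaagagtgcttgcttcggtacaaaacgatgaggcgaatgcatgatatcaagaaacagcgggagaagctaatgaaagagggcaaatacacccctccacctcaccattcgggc
BC002163 held 25.7% of the reads of the pair in animal 2 (24.0 to 27.5%) and 25.4% in animal 1 (23.6 to 27.2%) in the gene table. It was listed at 0 in the second table, with upper limits of 0.167% in animal 2 and 0.182% in animal 1.

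Ndufa12, an accessory subunit at the N module, and Gm15920 (chr5:130188395-130188796, plus strand) differed by A135G and T414C, both within bases 115 to 414.
Ndufa12: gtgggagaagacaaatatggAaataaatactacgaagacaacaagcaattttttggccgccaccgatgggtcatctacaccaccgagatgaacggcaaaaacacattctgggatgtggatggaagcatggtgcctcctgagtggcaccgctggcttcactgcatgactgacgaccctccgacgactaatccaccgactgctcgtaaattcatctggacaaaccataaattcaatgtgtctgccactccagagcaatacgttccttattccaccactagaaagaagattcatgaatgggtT
Gm15920: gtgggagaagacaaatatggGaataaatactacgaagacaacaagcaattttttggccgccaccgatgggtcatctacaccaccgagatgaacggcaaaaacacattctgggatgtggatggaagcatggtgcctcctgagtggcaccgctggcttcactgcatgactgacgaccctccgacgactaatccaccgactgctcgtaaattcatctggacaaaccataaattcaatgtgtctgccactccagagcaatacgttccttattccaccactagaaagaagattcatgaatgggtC
Gm15920 held 11.8% of the reads of the pair in animal 2 (11.04 to 12.7%) and 11.1% in animal 1 (10.3 to 11.98%) in the gene table. In the second it held 7.93% in animal 2 and 7.80% in animal 1. The fourth pair was Ndufab1, the mitochondrial acyl carrier protein, and Gm4459 (chr7:139659688-139660155, minus strand), which differed by G137A. Here the order of the tables was turned round, since Gm4459 held 2.48% of the pair in animal 2 and 2.94% in animal 1 in the gene table, and 12.6% in animal 2 and 17.9% in animal 1 in the second. Copy shares differed more between tables than between animals in all 4 pairs.

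**Figure D1:**
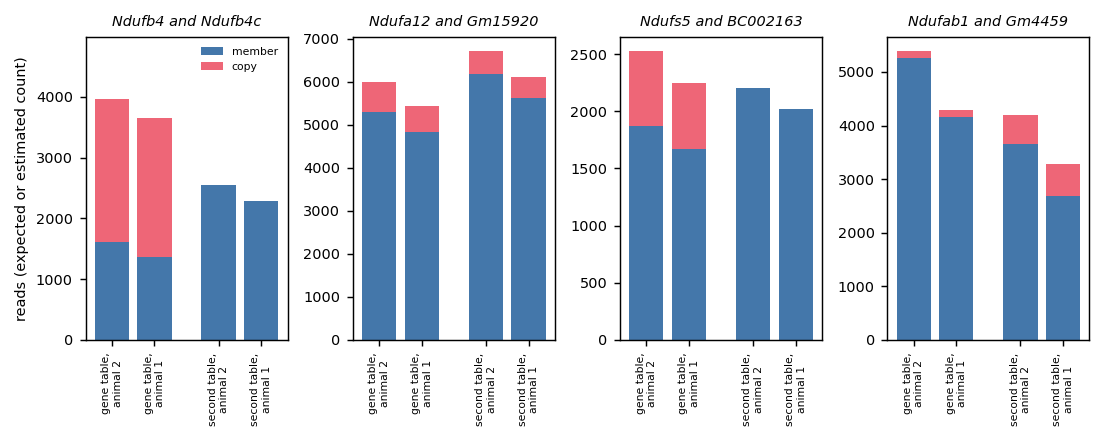
Reads assigned to 4 members (blue) and to their near-identical copies (red), given by the gene table and by the second table, with animal 2 left of animal 1. Ndufb4c holds 59.2% of its pair's reads in animal 2 and 62.4% in animal 1 in the gene table, and 0 in the second.

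All 46 members were detected, at 1 TPM or more in both animals and in both tables. They held 0.855% of the TPM of named genes in animal 2 and 0.799% in animal 1 (0.827 ± 0.0398%, SD, n = 2), or 1.89% of the TPM of protein-coding genes in animal 2 and 1.77% in animal 1. The median member stood at 168 TPM in animal 2, against 152 TPM in animal 1. TPM is a level per transcript length, so levels can be set between genes. Animals differed little beside the range over members. The SD between animals was 5.17% of the mean for the median member and at most 17.0%, for Ndufaf2. In the order of mean levels, 32 of 45 neighbouring pairs had overlapping ranges of the 2 animals, so their order was not resolved.

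Subunits formed 1 narrow band of levels. Their median was 185 TPM, and 29 of 36 lay within 2-fold of it. The highest subunit, Ndufa3, was 5.49 times as high as the lowest, Ndufb3. In the second table the ends were other genes, Ndufb8 at a mean of 821 TPM and Ndufa1 at 146 TPM, and their ratio was 5.63. That width depends on which transcript lengths are used. With counts divided by the length of each gene's longest coding transcript and by the library total, the highest subunit (Ndufb9) was 22.9 times as high as the lowest (Ndufb2), whose longest coding transcript is annotated with 4371 bases. Across the 36 subunits, mean gene-table level and the gene table's effective length in animal 1 had a Spearman's rho of -0.12. With mean second-table levels and the same lengths it was -0.11. Both are given as a description since the genes share both libraries. The median subunit was above 97.5% of the 10624 protein-coding genes at 1 TPM or more, whose own median was 7.31 TPM.

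**Figure D2:**
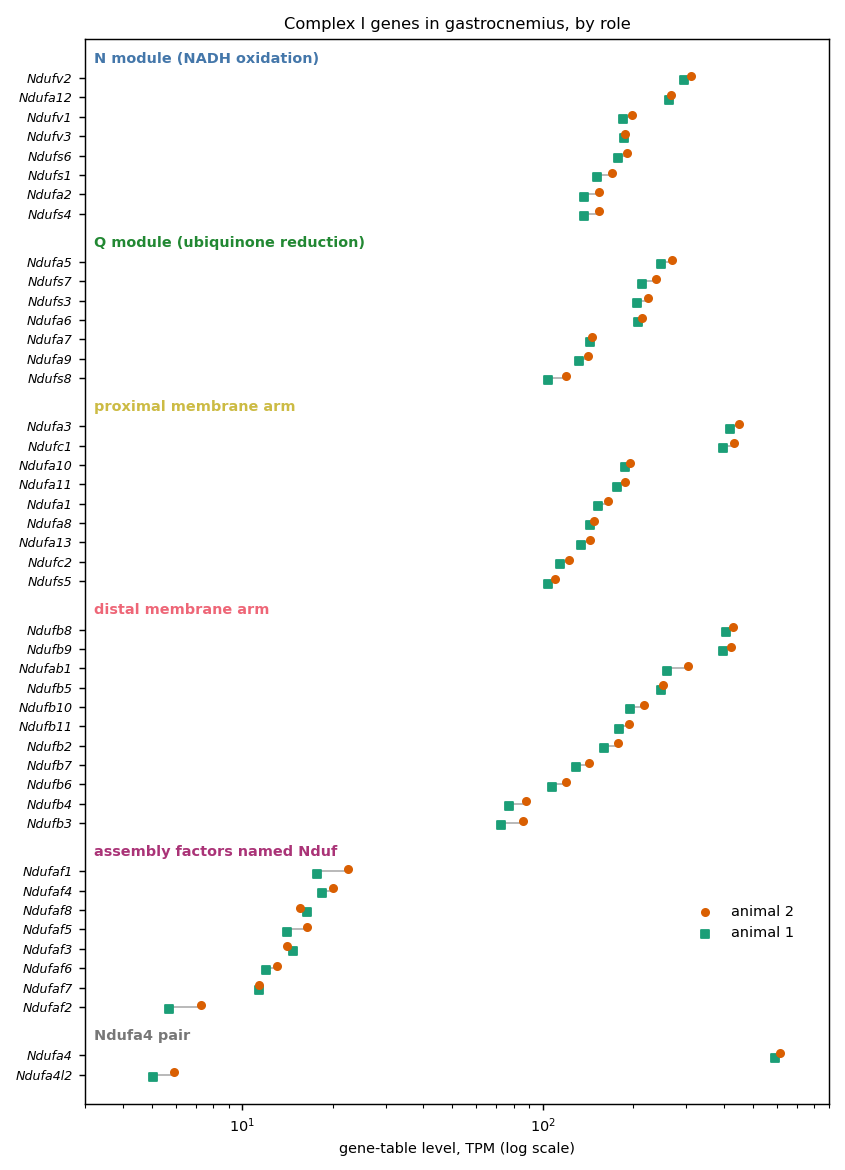
Gene-table level of 45 of the 46 members in TPM on a log axis, grouped by role and ordered by mean within each group, with animal 2 as orange circles and animal 1 as green squares. Subunits lie between 72.6 TPM (Ndufb3, animal 1) and 449 TPM (Ndufa3, animal 2), and the assembly factors lie below them at 5.70 to 22.5 TPM.

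The N module had a median of 189 TPM in animal 2, against 181 TPM in animal 1. Ndufv2, which carries an iron-sulfur cluster next to the flavin, was the highest of the 8, at 312 TPM in animal 2, against 296 TPM in animal 1. Ndufv1, which binds NADH and the flavin mononucleotide that first takes its electrons, had 198 TPM in animal 2, against 185 TPM in animal 1. These 2 core subunits form a heterodimer in the finished complex, and their mean levels were 304 ± 11.4 and 192 ± 9.37 TPM (SD, n = 2), with no overlap between the genes in either animal. Ndufs1, the largest subunit, with further iron-sulfur clusters, had 170 TPM in animal 2, against 152 TPM in animal 1. Of the accessory subunits, Ndufa12 had 267 TPM in animal 2, against 263 TPM in animal 1. Ndufv3 stood at 188 TPM in animal 2, against 186 TPM in animal 1 and Ndufs6, which binds zinc, at 190 TPM in animal 2, against 178 TPM in animal 1. The lowest were Ndufs4, loss of which causes a Leigh-like disease in mice, with 154 TPM in animal 2, against 137 TPM in animal 1, and Ndufa2 with 154 TPM in animal 2, against 138 TPM in animal 1. Those 2 could not be separated from each other by their animals.

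The Q module had the highest median of the structural groups, 219 TPM in animal 2, against 207 TPM in animal 1. Ndufs7, a core subunit at the ubiquinone site that carries the last iron-sulfur cluster, had 238 TPM in animal 2, against 215 TPM in animal 1. Ndufs8, which holds the iron-sulfur clusters before the last one, was the lowest of the 8, with 120 TPM in animal 2, against 104 TPM in animal 1. Ndufs3, another core subunit, had 224 TPM in animal 2, against 206 TPM in animal 1. The accessory subunits Ndufa5 (270 TPM in animal 2, 248 TPM in animal 1), Ndufa6 (213 TPM in animal 2, 207 TPM in animal 1), Ndufa7 (146 TPM in animal 2, 144 TPM in animal 1) and Ndufa9 (142 TPM in animal 2, 132 TPM in animal 1) were all above Ndufs8 in both animals. The 7 nuclear core subunits had a median mean level of 215 TPM. The 29 accessory subunits of all structural groups, membrane arm included, had one of 182 TPM, and the ranges overlapped.

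The proximal membrane arm held the highest subunit and the lowest group median (165 TPM in animal 2, against 153 TPM in animal 1). Ndufa3 (chr7:3617373-3620327, plus strand), a small single-pass membrane protein, had 449 TPM in animal 2, against 421 TPM in animal 1, and Ndufc1 had 434 TPM in animal 2, against 397 TPM in animal 1. The animals' ranges of these 2 genes overlapped. Both were led by transcripts that the annotation does not call coding. The other 7 subunits were lower, from Ndufa10, a member of the deoxyribonucleoside kinase family, with 195 TPM in animal 2, against 188 TPM in animal 1, to Ndufs5 with 110 TPM in animal 2, against 104 TPM in animal 1. Between them lay Ndufa11 (188 TPM in animal 2, 176 TPM in animal 1), the X-linked Ndufa1 (165 TPM in animal 2, 153 TPM in animal 1), Ndufa8 (148 TPM in animal 2, 144 TPM in animal 1), Ndufa13 (143 TPM in animal 2, 134 TPM in animal 1) and Ndufc2 (122 TPM in animal 2, 114 TPM in animal 1). The place of Ndufa3 at the top held only in the gene table. In the second it had 231 TPM in animal 2, against 310 TPM in animal 1, and the median subunit was at 312 TPM.

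The distal membrane arm had the widest range of the structural groups in the gene table. Ndufb8 had 430 TPM in animal 2, against 409 TPM in animal 1, and Ndufb9 had 423 TPM in animal 2, against 398 TPM in animal 1, again with overlapping ranges. Ndufab1, which carries a phosphopantetheine group and also serves mitochondrial fatty acid synthesis, had 304 TPM in animal 2, against 258 TPM in animal 1. At the other end, Ndufb3 had 85.7 TPM in animal 2, against 72.6 TPM in animal 1, and Ndufb4 had 88.2 TPM in animal 2, against 77.3 TPM in animal 1. The place of Ndufb4 at the low end held only in the gene table, because the second table gave it 421 TPM in animal 2, against 423 TPM in animal 1. Between these came Ndufb5 (251 TPM in animal 2, 248 TPM in animal 1), Ndufb10 (218 TPM in animal 2, 195 TPM in animal 1), the X-linked Ndufb11 (194 TPM in animal 2, 180 TPM in animal 1), Ndufb2 (178 TPM in animal 2, 160 TPM in animal 1), Ndufb7 (142 TPM in animal 2, 129 TPM in animal 1) and Ndufb6 (119 TPM in animal 2, 107 TPM in animal 1).

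Assembly factors were expressed far below the subunits. Their median was 14.8 TPM in animal 2, against 14.4 TPM in animal 1, and the median subunit was 12.5 times as high (13.9 times in the second table and 13.0 times by the longest coding transcript). The lowest subunit was 3.94 times as high as the highest assembly factor in the gene table. On the scale of the longest coding transcript these ends met, and Ndufb2 was lower than Ndufaf1. The median assembly factor was still above 70.3% of the protein-coding genes at 1 TPM or more.

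Ndufaf1, which in human cells helps to assemble the membrane arm, had 22.5 TPM in animal 2, against 17.7 TPM in animal 1. Ndufaf3 and Ndufaf4, which act together in early assembly in human cells, had 14.1 and 20.04 TPM in animal 2, against 14.7 and 18.4 TPM in animal 1. The other early factors lay close by. Ndufaf5, which modifies an arginine of the protein NDUFS7 in human cells, had 16.4 TPM in animal 2, against 14.1 TPM in animal 1, and Ndufaf8, its partner in human cells, had 15.5 TPM in animal 2, against 16.5 TPM in animal 1. Ndufaf6 had 13.0 TPM in animal 2, against 11.96 TPM in animal 1. Ndufaf7, an arginine methyltransferase in human cells, had 11.4 TPM in animal 2, against 11.3 TPM in animal 1. The lowest was Ndufaf2, a paralogue of Ndufa12 that acts late in human cells, with 7.26 TPM in animal 2, against 5.70 TPM in animal 1. Counts on Ndufaf2 were 168 in animal 2 and 125 in animal 1, the fewest of any member. Of 13 matched assembly factors with other names, all were at 1 TPM or more, from Nubpl (mean 1.85 TPM), which supplies iron-sulfur clusters, to Tmem126a (41.5 TPM), with a median of 17.6 TPM. A further name, Coa1, did not match the annotation.

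Ndufa4 and its paralogue Ndufa4l2 were the extremes of the 46. Ndufa4, first assigned to complex I and later found in complex IV, had 616 TPM in animal 2, against 594 TPM in animal 1 (605 ± 15.8 TPM, SD, n = 2). Ndufa4l2, which is induced by hypoxia in human cells, had 5.92 TPM in animal 2, against 5.06 TPM in animal 1. Ndufa4 was 104 times as high as Ndufa4l2 in animal 2 and 117 times in animal 1. The level of Ndufa4 was above every nuclear subunit of complex I in the gene table. In the second Ndufb8 was higher, with a mean of 821 TPM, than Ndufa4, with 760 TPM.

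The 7 mitochondrially encoded core subunits stood above all nuclear ones in the gene table. Their mean levels ran from 1115 TPM for mt-Nd6 (1255 TPM in animal 2, against 976 TPM in animal 1) to 7879 TPM for mt-Nd1 (8198 TPM in animal 2, 7561 TPM in animal 1). The level of mt-Nd4l depended on the table, and it had 5600 TPM in animal 2, against 4299 TPM in animal 1 in the gene table, and 53.3 TPM in animal 2, against 70.8 TPM in animal 1 in the second. For mt-Nd3 the order of the animals depended on it too. The gene table gave mt-Nd3 4341 TPM in animal 2, against 3701 TPM in animal 1, and the second 1808 TPM, against 3829 TPM. Among the nuclear lists of the other complexes, the median mean level was 278 TPM over 4 subunits of complex II, 367 TPM over 9 of complex III, 541 TPM over 11 of complex IV and 347 TPM over 15 of complex V. The median of 185 TPM over the 36 subunits of complex I was lower than each of these, with ranges that overlapped every list. In the second table it was 312 TPM, above complex II (295 TPM) and below complexes III (612 TPM), IV (890 TPM) and V (737 TPM). These are descriptions, since genes of 1 complex are not replicates of it.

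Ratios between the animals were taken on expected counts scaled with edgeR's TMM factors, so they describe how evenly the members differed between these 2 libraries. All 46 members were higher in animal 2, against 50.6% of the 15696 genes at mean counts of 10 and above. The share of higher genes depended on abundance. At mean counts of 1000 and above (4112 genes) it was 69.4%, and 38 of 38 members at that level were higher. No member was 2-fold apart, against 2.97% of 10872 genes at mean counts of 100 and above. The median log2 ratio over members was 0.22, while the median of all genes was 0.00388.

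Members differed little from each other in this ratio. Their log2 ratios ran from 0.07 to 0.45 with an SD of 0.075. Among the 3763 genes with mean counts of 1000 to 10000, the central 95% ran from -0.55 to 0.52, and 27.5% of these genes lay within the range of the 35 members at that level, 0.13 to 0.36. All 35 exceeded the median of those genes, 0.07, and 28 exceeded their upper quartile, 0.17. The exact binomial 95% interval lay above 0 for 43 members and below 0 for none, for counting error only. Such intervals were computed for the members only, so no share over all genes stands beside this count. The ratio depended on the scaling. The median over members was 0.11 with library size alone, which put Ndufaf8 at -0.04 and left 45 members above 0, and where the median of all genes was -0.11. It was 0.42 with spike-ins, where the median of all genes was 0.20. The slow-fibre, adipocyte and Schwann cell markers differed between the same 2 libraries by the ratios given above, and their part in the members' ratios was not tested.

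**Figure D3:**
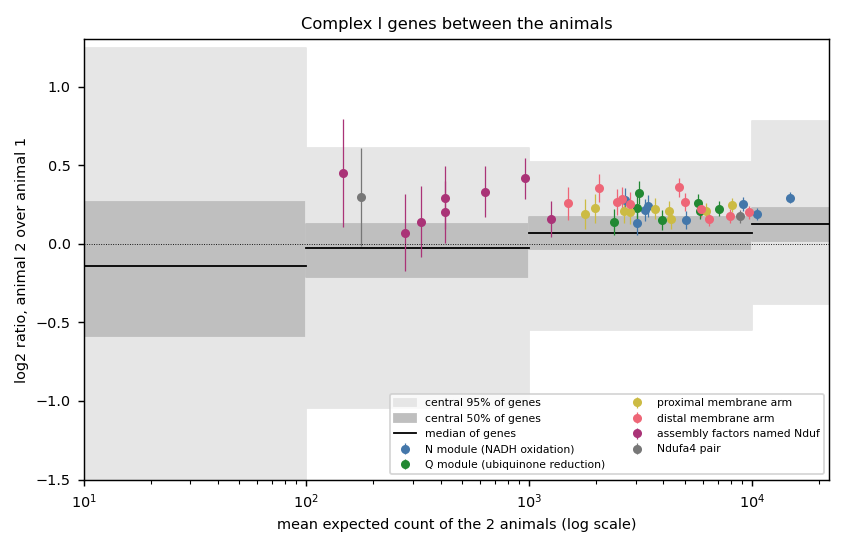
Log2 ratio of animal 2 over animal 1 against mean expected count on a log axis, for 45 of the 46 members by role with exact binomial 95% intervals. Grey bands give the central 95% and 50% of all genes in 4 ranges of count, and the members lie between 0.07 and 0.45, above the median of genes in each range that holds members.

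By role the median log2 ratio was 0.23 in the N module, 0.22 in the Q module, 0.21 in the proximal and 0.26 in the distal membrane arm, and 0.25 over the assembly factors. The furthest apart was Ndufaf2, at 0.45 (95% interval 0.11 to 0.80), followed by Ndufaf1 at 0.42 (0.28 to 0.55), with 1090 counts in animal 2 and 831 in animal 1. Among subunits Ndufab1 led at 0.36 (0.30 to 0.42), with 5252 counts in animal 2 and 4165 in animal 1, and Ndufb3 followed at 0.35 (0.26 to 0.44). The smallest ratios were those of Ndufaf8, at 0.07 (-0.17 to 0.32), Ndufv3, at 0.13 (0.06 to 0.20), Ndufaf3, at 0.14 (-0.09 to 0.37), and Ndufa7, at 0.14 (0.06 to 0.22). In TPM, 44 members were higher in animal 2, and the exceptions were Ndufaf3 and Ndufaf8. The second table gave 40 of 46 the higher TPM in animal 2. The share of all genes with the higher TPM in animal 2 is not given here for either table.

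Other genes of the respiratory chain were also higher in animal 2 on scaled counts. The 7 mitochondrially encoded subunits differed by a median log2 ratio of 0.24 in the gene table. In second-table TPM, mt-Nd3 and mt-Nd4l were lower in animal 2 and the other mitochondrially encoded subunits were higher. The medians were 0.30 over 4 subunits of complex II, 0.24 over 9 of complex III, 0.21 over 11 of complex IV and 0.24 over 15 of complex V, and each of these 39 genes was higher in animal 2, against 50.6% of genes at mean counts of 10 and above and 69.4% at 1000 and above. With library size alone the medians were 0.19, 0.13, 0.10 and 0.13 over complexes II, III, IV and V. Cox7a1, a muscle form of a complex IV subunit, had a log2 ratio of 0.03. Its TPM was lower in animal 2, at 413 TPM, against 436 TPM in animal 1. By TPM of the second table, Uqcrb, Uqcrq, Uqcr10, Cox7a1, Cox8b, Atp5e and Atp5g2 were lower in animal 2, and the others of these complexes were higher. The 13 assembly factors with other names were also all higher in animal 2 on scaled counts, with a median of 0.13, from Ecsit at 0.04 to Tmem70 at 0.32. With library size alone their median was 0.02, and in TPM Ecsit, Foxred1, Aifm1 and Tmem186 were lower in animal 2. The values lie side by side with those of complex I, and no difference between the lists was tested.

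Both tables were made from the same libraries, so a difference between them shows where a level depends on how reads were assigned. Differences were taken as log2 of gene-table TPM over second-table TPM with a pseudocount of 0.1 and centred on the median gene, which was at -0.54. After centring, 2 of 46 members were 2-fold or more apart, against 5.79% of 11697 genes. Ndufb4 was at -1.81, lower in the gene table, and Ndufa3 was at 1.24, higher in the gene table. Ndufa3 had 231 TPM in animal 2, against 310 TPM in animal 1 in the second table. Its log2 ratio on scaled counts was 0.04 in the second table and 0.21 in the gene table. In animal 1 alone, Ndufb4 was the 1 member past 2-fold. The next were Ndufb5 and Ndufs5 at -0.71, Ndufaf3 at -0.70 and Ndufa1 at 0.66. Ndufb5 had 603 TPM in animal 2, against 591 TPM in animal 1 in the second table, and Ndufs5 had 243 TPM in animal 2, against 266 TPM in animal 1.

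**Figure D4:**
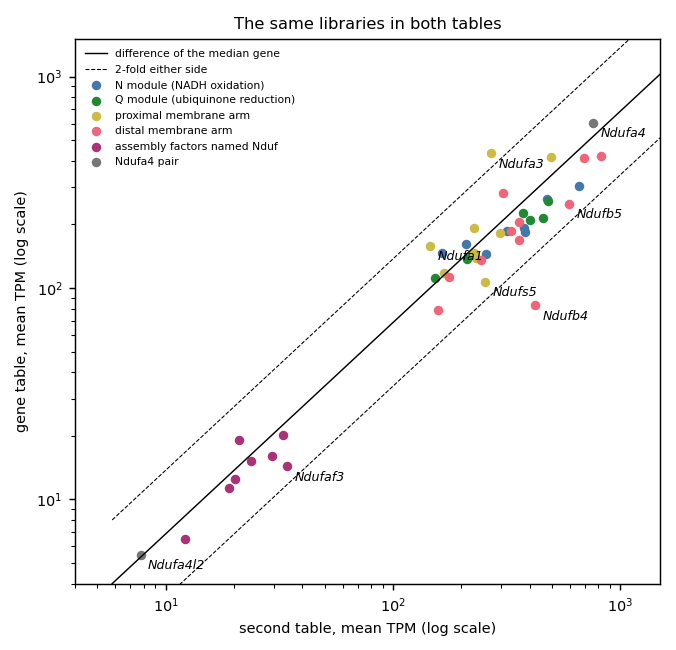
Mean gene-table TPM against mean second-table TPM for 45 of the 46 members, both on log axes, coloured by role. The solid line is the difference of the median gene and the dashed lines lie 2-fold either side, with Ndufb4 below the band and Ndufa3 above it.

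No strand setting is given in the sources used here, so reads of a member and of a gene on the other strand may not have been separated. Another annotated gene overlapped 22 members, and 18 were overlapped on the opposite strand. The share of all genes with such an overlap is not given here. For 7 of these 18 members the partner had at least 10% of the member's counts. Of these, 3 were among the least abundant members, and there the partner had more reads than the member. Shmt2 had 455% of the counts of Ndufa4l2, Impdh2 353% of those of Ndufaf3 and Smim15 257% of those of Ndufaf2. The others were Ndufs1 with Eef1b2 (23.9%), Ndufb2 with Braf (21.8%), Ndufs6 with Mrpl36 (16.7%) and Ndufb5 with Mrpl47 (11.9%). With these partners the annotated overlap was 32 bases for Ndufa4l2, 48 for Ndufaf3 and 4727 for Ndufaf2. It was 9 bases for Ndufs1, 146 for Ndufb2, 30 for Ndufs6 and 616 for Ndufb5. How many reads fell in the overlaps was not analysed here.

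Most members were carried by 1 leading transcript that codes for protein. In the first transcript table, a single transcript held more than 50% of the TPM of its gene in 43 of 46 members, and in 38 in the second. The leading transcript, whatever its share, was annotated as protein coding for 37 members in the first and 36 in the second table. Shares over all genes are not given here for these counts, so they cannot be read as particular to the members. The median member had 95.3% of its TPM on coding transcripts (96.1% in the second table), and 26 had 90% or more. In the first table the leading transcript was the same in both animals for all 46, and its percent differed between them by at most 7.06 points. Some shares moved more in the second table. There Ndufaf1-202 held 35.2% of its gene in animal 2, against 68.8% in animal 1, and Ndufaf2-201 held 83.1%, against 52.5%. Between tables the leading transcript was the same for 35 members, of which 6 have only 1 annotated transcript.

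The 3 without a majority transcript were Ndufab1, led by Ndufab1-205 with 35.3%, Ndufa10, led by Ndufa10-201 with 32.4%, and Ndufaf7, led by Ndufaf7-205 with 43.1%. In 9 members the leading transcript of the first table was of another type. The nonsense-mediated decay transcript Ndufa3-204 held 93.0% of Ndufa3, with 92.7% in animal 2 and 93.3% in animal 1, and Ndufs4-204 of the same type held 59.1% of Ndufs4. Retained-intron transcripts led Ndufb4 (Ndufb4-202, 80.6%), Ndufc1 (Ndufc1-203, 63.4%), Ndufaf8 (Ndufaf8-203, 57.8%), Ndufab1 and Ndufaf7. Transcripts called only processed led Ndufaf4 (Ndufaf4-202, 63.7%) and Ndufa5 (Ndufa5-204, 57.3%).

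The second table put a transcript of another type first in 8 of these 9, Ndufaf8 being the exception, and also in Ndufa7 and Ndufb2. The tables did not always choose the same one. Ndufa3 was led there by the retained-intron transcript Ndufa3-205 with 49.6%, and Ndufc1 by the processed transcript Ndufc1-202 with 96.8%. For 3 members the coding percent differed between tables by 50 points or more. Ndufa7 had 95.6% on coding transcripts in the first table and 9.20% in the second, Ndufb2 had 87.9 and 34.2%, and Ndufaf8 had 42.2 and 100%. Transcript shares are estimates, and the TPM of a gene depends on them through the lengths of its transcripts. For Ndufv3, which in mammals makes a short and a long protein by splicing, Ndufv3-202 held 97.4% in the first table and 97.6% in the second.

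**Figure D5:**
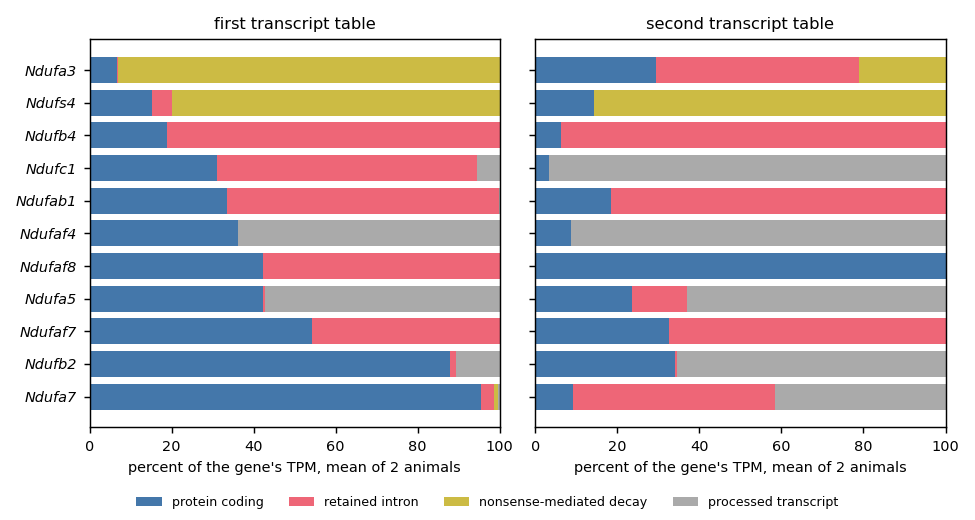
Percent of the gene's TPM by annotated transcript type, as the mean of both animals, for the 11 members led by a transcript that is not protein coding in at least 1 of the tables. The coding percent of Ndufa7 is 95.6% in the first table and 9.20% in the second.

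The members' promoters were searched for shared motifs. RefSeq windows on GRCm38.p6, from 250 bases before to 50 after each annotated start, were matched by symbol for 40 of the 46 members (42 windows). Names without a window included Ndufa2, Ndufa4l2, Ndufaf6, Ndufb9 and Ndufs1. Short motifs were searched on both strands, and shares were set beside the 17492 protein-coding genes with a window. The core GCGCATGCG of the palindrome bound by NRF1, a factor known to act on many nuclear genes of the respiratory chain, was in 4 members (10%) and 2.61% of genes. Its shorter form TGCGCA, which can overlap the palindrome, was in 11 (27.5%) and 11% of genes. AGATGGC, of the type bound by YY1, was in 9 (22.5%) and 6.95% of genes. CCGGAAG, of the type bound by ETS factors such as GABP, was in 6 (15.0%) and 12.9% of genes, and AAGGTCA, of the type bound by oestrogen-related receptors, was in 3 (7.5%) and 4.73% of genes. CCAAT was in 14 (35.0%) and 42.3% of genes, and TATAAA in 4 (10%) and 14.8% of genes. The members' windows had a median GC content of 59.3% and 20.5 CpG, against 56.3% and 13 for protein-coding genes, and shares of GC-rich motifs were not adjusted for this.

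The 4 windows with the palindrome core are shown because it is the motif here with the longest exact match, with capitals marking it on either strand. They are Ndufa11 (chr17:56717512-56717811, plus strand), Ndufa8 (chr2:36049289-36049588, minus strand), Ndufaf4 (chr4:24897833-24898132, plus strand) and Ndufaf5 (chr2:140170396-140170695, plus strand), each written 5′ to 3′ along the gene.
Ndufa11: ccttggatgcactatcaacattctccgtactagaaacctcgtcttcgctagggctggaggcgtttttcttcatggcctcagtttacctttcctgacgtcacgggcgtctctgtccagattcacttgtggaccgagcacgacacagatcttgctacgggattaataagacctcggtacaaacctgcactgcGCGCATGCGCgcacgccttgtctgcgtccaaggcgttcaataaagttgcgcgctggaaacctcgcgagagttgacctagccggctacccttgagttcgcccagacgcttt
Ndufa8: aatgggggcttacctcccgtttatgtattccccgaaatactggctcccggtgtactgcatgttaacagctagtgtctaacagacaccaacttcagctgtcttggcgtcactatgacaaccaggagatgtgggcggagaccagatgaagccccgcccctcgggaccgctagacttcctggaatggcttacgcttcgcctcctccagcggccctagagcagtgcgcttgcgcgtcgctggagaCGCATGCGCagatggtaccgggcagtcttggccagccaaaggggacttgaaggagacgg
Ndufaf4: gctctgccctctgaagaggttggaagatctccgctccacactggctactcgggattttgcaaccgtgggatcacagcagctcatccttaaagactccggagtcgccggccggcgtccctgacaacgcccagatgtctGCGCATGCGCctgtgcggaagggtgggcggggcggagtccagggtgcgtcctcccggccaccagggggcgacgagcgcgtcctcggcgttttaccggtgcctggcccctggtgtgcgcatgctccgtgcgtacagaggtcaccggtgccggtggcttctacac
Ndufaf5: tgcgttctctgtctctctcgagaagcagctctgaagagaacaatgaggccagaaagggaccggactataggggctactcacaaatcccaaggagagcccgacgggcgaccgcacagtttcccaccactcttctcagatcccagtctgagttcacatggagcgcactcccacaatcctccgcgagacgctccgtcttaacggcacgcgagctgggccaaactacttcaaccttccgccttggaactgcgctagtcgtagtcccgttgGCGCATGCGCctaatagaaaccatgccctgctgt
The marked bases begin 60 bases before the annotated start in Ndufa11, 9 before it in Ndufa8, 113 before it in Ndufaf4 and 16 after it in Ndufaf5. In 3 of them the match reads the same on both strands over 10 bases. These 4 genes did not stand together in level, at 182 and 146 TPM for the subunits Ndufa11 and Ndufa8 and 19.2 and 15.3 TPM for the assembly factors Ndufaf4 and Ndufaf5. A match in these letters is a description of the window, and no binding was measured here.

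Other genes named Nduf fell outside the rule. Ndufb1-ps, which the annotation calls a long non-coding RNA from a bidirectional promoter, had 103 TPM in animal 2, against 93.9 TPM in animal 1, a level inside the range of the subunits. Of the 4 annotated as processed pseudogenes, only Ndufb4c passed 1 TPM in both animals, with 201 TPM in animal 2, against 208 TPM in animal 1.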

How the data were processed

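Gene tables and a first set of transcript tables were deposited with expected counts, TPM, a posterior SD of each count and, per transcript, the percent of the gene's TPM, in RSEM's column layout per the file headers. A second set of transcript tables, deposited in kallisto's layout with estimated counts and TPM, was summed per gene. The file lists name mm10 with GENCODE M21. Tool names and versions are, like any strand setting, not given in the sources used here. Reads of a B6 by CAST cross were counted on mm10, and how many CAST reads were lost was not analysed here. All 55536 gene identifiers matched the annotation. Of counts, 1.04e-05% in animal 2 and 6.63e-06% in animal 1 lay on 26248 numbered rows without a gene name. These and the 96 spike-in rows stayed out of library sizes.

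With 1 group of 2 libraries no test was possible, and no p-value was computed. Log2 ratios, animal 2 over animal 1, used expected counts, a prior count of 0.5 and TMM scaling by edgeR at mean counts of 10 and above, and the scaling step took counts rounded to integers. Intervals are exact binomial at 95%. Detection means 1 TPM, and transcripts were described at 5 TPM and above. The ratio step was tested on simulated counts. Alternatives were other scalings, prior counts, pseudocounts, filters, the second table and each library left out. The members, the lists by role, the markers and the rule for genes given with full values (extremes of each role, the nuclear core, the assembly factors, and members furthest apart between animals or tables) were chosen with earlier results of these data known. The values of 1 member are not reported here singly, though it is counted in medians, shares and totals. The level by longest coding transcript was added after the values were seen. Scaling ran in R 4.3.3 with edgeR 4.0.16 and DESeq2 1.42.0, and the rest in Python 3.11.15 with pandas 2.3.3, numpy 2.4.6, matplotlib 3.10.9 and scipy 1.17.1.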

Additional observations from a re-analysis of the deposited data

How the results depend on the processing

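The median level of the members was 255 TPM in the second table. Their share of TPM was 1.34% in the second table, 1.83% of protein-coding TPM, and 0.434% as a share of expected counts. The median log2 ratio, animal 2 over animal 1, was 0.21 with DESeq2's median of ratios, 0.11 with library size alone, 0.42 with spike-ins and 0.21 in the second table. Without centring, 8 members were 2-fold or more apart between the tables. Per kilobase of the longest coding transcript, an alternative chosen after seeing the data, the highest subunit was 22.9 times the lowest. With each library left out, the results were 46 detected members, a median of 152 to 168 TPM, a share of 0.799 to 0.855%, 1 to 2 members apart between the tables, 43 with a majority transcript and 37 led by a coding one. The cause of these differences was not tested. Leaving out 6 members whose counts had a posterior SD over 1 read, also chosen after seeing the data, gave a median ratio of 0.22 over 40 members. The detected members, the members higher in animal 2 (45 or 46), the absence of members 2-fold apart and both transcript counts kept within 1.5 times of their values under the alternatives tried. Ratios between animals cannot be taken with a library left out. No paired analysis was possible because there was only 1 group. At these depths the least abundant members, Ndufaf2 and Ndufa4l2, had 125 to 192 counts per library, which limits their ratios.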
